A study of Mus musculus with 6 samples.

Results

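Genes of antigen presentation on MHC class II were followed through infarcted mouse hearts with and without Zeb2 in their cardiomyocytes. They were H2-Aa, H2-Ab1, H2-Eb1, Cd74, H2-DMa, H2-DMb1, Ciita and Cd209a, chosen by symbol, and all 8 were among the 38293 genes of the count table. RNA sequencing had been performed on 6 bulk heart samples of adult C57BL/6J (backcrossed) mice, 14 days after permanent occlusion of the left anterior descending artery. The 3 control libraries, labelled WT, came from mice that the study's methods call Zeb2 fl/fl, that is with floxed Zeb2 and no Cre. The 3 Zeb2 cKO libraries came from Zeb2 fl/fl mice carrying a Cre transgene under the Myh6 promoter, which is active in cardiomyocytes, so that all other cell types of the heart keep their Zeb2. The labels place the tissue in the border region of the infarct, whereas the study's methods name the remote zone. The labels number the libraries without naming the animals, and p-values measure the spread between these samples.

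MHC class II molecules are pairs of an alpha and a beta chain that hold peptides of ingested proteins on the cell surface, where CD4+ T cells read them. In the endoplasmic reticulum the pair is filled by the invariant chain, CD74, which cathepsin S and other lysosomal proteases cut down to a fragment named CLIP. The H2-DM pair then exchanges CLIP for peptide. Dendritic cells, B cells and many macrophages transcribe these genes together, because the coactivator CIITA is recruited to an X box and a Y box that their promoters share, where the RFX and NF-Y complexes are bound. In the injured heart, the cells known for class II are resident and monocyte-derived macrophages and the less numerous dendritic cells. In bulk tissue, fewer cells of a type and less RNA per cell cannot be told apart.

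The class II chain genes and the DM genes lie together: 5 of the 8 genes are on chromosome 17 of GRCm38, in a stretch of 197 kb from 34119541 to 34316674. Ciita is on chromosome 16 and Cd209a on chromosome 8. The promoters of H2-Aa and H2-Eb1 are shown because they hold the X and Y pair through which these genes are known to be read together, and that of Cd209a because it does not. Each line gives the 150 bases before the gene's start in RefSeq, build GRCm38.p6, on the strand of the gene and 5′ to 3′, with the core of the X box (GNAAC) and the Y box (ATTGG) of a pair in capitals.

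H2-Aa, minus strand, chr17:34287824-34287973: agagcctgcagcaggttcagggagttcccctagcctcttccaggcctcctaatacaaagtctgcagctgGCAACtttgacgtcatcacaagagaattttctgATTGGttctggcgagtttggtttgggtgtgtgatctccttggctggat
H2-Eb1, plus strand, chr17:34305717-34305866: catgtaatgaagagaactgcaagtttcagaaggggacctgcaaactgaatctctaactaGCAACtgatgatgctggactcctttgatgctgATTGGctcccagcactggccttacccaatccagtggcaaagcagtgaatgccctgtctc
Cd209a, minus strand, chr8:3748985-3749134: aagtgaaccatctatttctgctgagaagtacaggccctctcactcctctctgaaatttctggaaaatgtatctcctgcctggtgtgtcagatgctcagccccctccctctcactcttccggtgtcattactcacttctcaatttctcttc

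In H2-Aa the X core began 81 bases and the Y box 48 bases before the start, and in H2-Eb1 they began 91 and 59 bases before it. The pair was searched on the strand of the gene, with 28 to 36 bases from one beginning to the other, so its boxes cannot overlap. These letters and limits were chosen after the promoters had been read. On either strand, the X core alone was found in 84.8% of 32851 RefSeq promoters of 300 bases and the Y box alone in 37.4%. The pair was found in 0.734% of them. H2-DMb1 also held it, as did 3 other class II genes, H2-Eb2, H2-Oa and H2-Ob. It was absent from Cd209a, H2-DMb2 and the searched promoters of H2-DMa. For H2-DMa these were the promoters that hold 34122682-34122831 and 34125368-34125517 of chromosome 17. No start nearer to the end of H2-DMa, at 34139101, was searched, so a pair there is not excluded. H2-Ab1, Cd74 and Ciita were not searched. In H2-Ob, which encodes a chain of the DM inhibitor H2-DO, the pair and 6 bases on each side read as follows.

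H2-Ob, plus strand, chr17:34238812-34238858: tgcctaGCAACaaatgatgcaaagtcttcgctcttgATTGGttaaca

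A match to these letters is a description of the sequence and not a measured binding site.

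The libraries held between 37288174 and 51136331 counts, of which 60.5% to 67.0% were of mitochondrially encoded genes. Levels are given as CPM, the counts of a gene scaled to the size of its library with edgeR's TMM factors. WT 2 stood apart from the other libraries, with a mean absolute deviation from the mean of the 6 libraries of 0.48 on the log2 scale against 0.14 to 0.20 in the others. Zeb2 itself was at 61.3, 116 and 71.9 CPM in WT 1, 2 and 3 and at 59.6, 72.6 and 66.5 CPM in Zeb2 cKO 1, 2 and 3, with overlapping groups and a log2 fold change of -0.33 (SE 0.25, adjusted p = 0.957 by edgeR). Among 14746 genes that passed the filter on low counts, edgeR called 0 genes at an adjusted p under 0.05 and 280 had an unadjusted p under 0.05. DESeq2, which tested 24089 genes without that filter, called 1 gene, Slc46a2, and 429 had an unadjusted p under 0.05.

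All 8 class II presentation genes had counts in every library and all 8 passed the filter on low counts. Their fold changes all lay below 0, from -1.56 to -1.07 on the log2 scale, with a median of -1.25 beside -0.0069 over all tested genes. None of them was called: 0 of 8 had an adjusted p under 0.05, against 0% of all tested genes, and 0 of 8 had an unadjusted p under 0.05, against 0.861% of all tested genes with a lower and 1.04% with a higher level in Zeb2 cKO. In DESeq2, 0 were called and 1 of 8, Ciita, had an unadjusted p under 0.05, against 1.78% of all genes tested there. The groups overlapped for every one of the 8, while 2.97% of all tested genes had every Zeb2 cKO library below every WT library.

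These fold changes rested on a single control library. WT 2 was the highest of the 6 libraries for 8 of 8 genes, against 35.2% of all tested genes, and lay more than 2-fold above the next library for 8 of 8, against 5.95%. Without WT 2, a comparison of 2 WT with 3 Zeb2 cKO libraries, 6 of the 8 fold changes were above 0 and 2 below, and their median was 0.19.

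**Figure D1:**
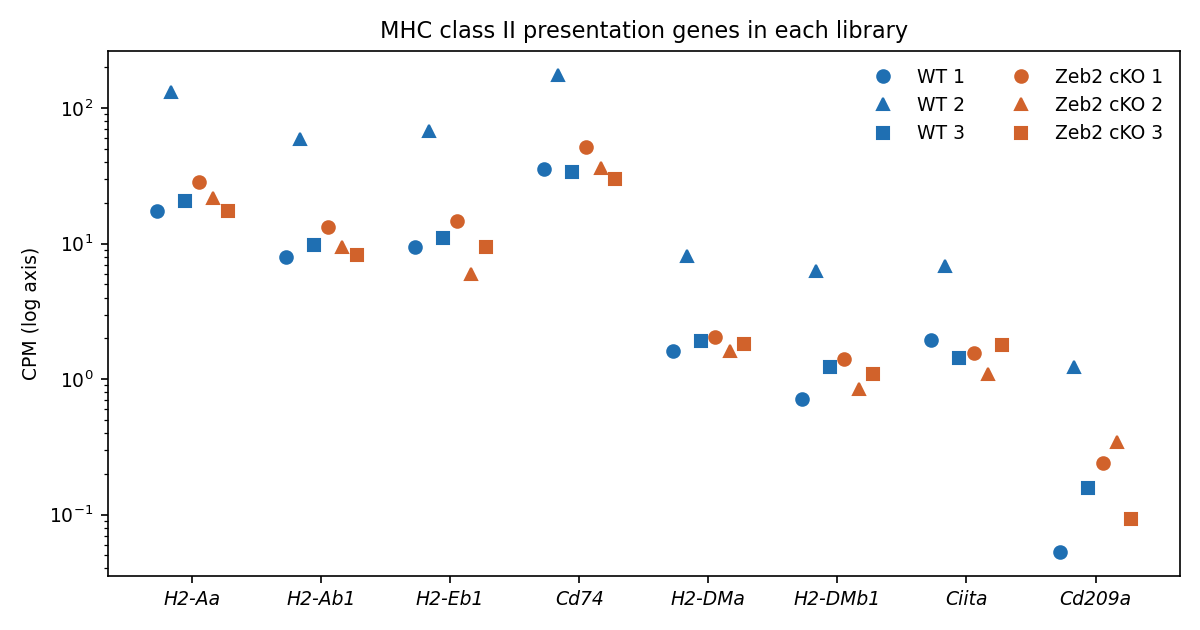
CPM on a log axis of the 8 genes, with 1 point per library (blue, WT; orange, Zeb2 cKO; circle, triangle and square, replicates 1, 2 and 3). The blue triangle, WT 2, is the highest point of every gene, and the other 5 libraries lie close together except for Cd209a.

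The chains of the I-A molecule, the class II molecule that C57BL/6 mice display, were encoded by H2-Aa (alpha) and H2-Ab1 (beta). H2-Aa was at 17.4, 132 and 20.6 CPM in WT 1, 2 and 3 and at 28.7, 21.8 and 17.3 CPM in Zeb2 cKO 1, 2 and 3. WT 2 was 4.59-fold above the next library, and the other 5 libraries were interleaved between the genotypes within a range of 1.66-fold. The log2 fold change was -1.33 (SE 0.77, 95% interval -3.16 to 0.51, adjusted p = 0.957), and the exact two-sided permutation test over the libraries gave p = 0.8, where 3 against 3 cannot go below 0.1. Without WT 2 it was 0.25 (SE 0.21). H2-Ab1 was at 7.91, 59.1 and 9.82 CPM in the WT and 13.3, 9.47 and 8.23 CPM in Zeb2 cKO 1, 2 and 3. Its order of libraries differed from that of H2-Aa only between WT 3 and Zeb2 cKO 2 and between WT 1 and Zeb2 cKO 3. The log2 fold change of H2-Ab1 was -1.31 (SE 0.76, adjusted p = 0.957), or 0.23 (SE 0.21) without WT 2.

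H2-Eb1 encodes the beta chain of I-E, the other class II molecule. Mice of the b haplotype, C57BL/6 among them, transcribe this chain but are known to lack a transcribed alpha partner, the gene that the annotation calls H2-Ea-ps, and so carry no I-E on the surface. H2-Eb1 was at 9.48, 68.1 and 10.9 CPM in the WT and at 14.7, 5.92 and 9.40 CPM in Zeb2 cKO 1, 2 and 3. WT 2 was again the highest, and the lowest was Zeb2 cKO 2, which for H2-Aa and H2-Ab1 lay in the middle. The log2 fold change of H2-Eb1 was -1.56 (SE 0.80, adjusted p = 0.957, exact permutation p = 0.4), the lowest of the 8. Without WT 2 it was -0.021 (SE 0.33).

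Cd74, the invariant chain, lies on chromosome 18, and its level was 35.7, 177 and 33.6 CPM in the WT and 51.3, 36.3 and 29.8 CPM in Zeb2 cKO 1, 2 and 3. WT 2 was 3.45-fold above the next library, and the log2 fold change was -1.07 (SE 0.66, adjusted p = 0.957), or 0.18 (SE 0.21) without WT 2. Zeb2 cKO 1 was the second highest library for Cd74, as it was for H2-Aa, H2-Ab1, H2-Eb1, H2-DMa and H2-DMb1.

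The peptide editor is a pair of H2-DMa and H2-DMb chains. H2-DMa was at 1.62, 8.13 and 1.93 CPM in the WT and at 2.06, 1.61 and 1.81 CPM in Zeb2 cKO 1, 2 and 3, and H2-DMb1 at 0.717, 6.33 and 1.22 CPM in the WT and at 1.40, 0.853 and 1.10 CPM in Zeb2 cKO 1, 2 and 3. Both were highest in WT 2, and their other 5 libraries overlapped between the genotypes. The log2 fold changes were -1.10 (SE 0.61) for H2-DMa and -1.31 (SE 0.77) for H2-DMb1, and 0.046 (SE 0.20) and 0.21 (SE 0.33) without WT 2. Over 76.9% of its longest transcript, H2-DMb1 is near-identical to its neighbour H2-DMb2, and the counts of these paralogues are uncertain. H2-DMa shares 360 exon bases with Brd2 on the opposite strand. The reads were strand-specific, but the strand setting of the counting is not given in the sources used here.

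Ciita, the coactivator, was at 1.94, 6.81 and 1.43 CPM in the WT and at 1.56, 1.08 and 1.79 CPM in Zeb2 cKO 1, 2 and 3. WT 2 was 3.52-fold above the next library, which here was WT 1. The log2 fold change of Ciita was -1.20 (SE 0.59, adjusted p = 0.957, exact permutation p = 0.3), and without WT 2 it was -0.18 (SE 0.27). Ciita shares 329 exon bases with Dexi on the opposite strand.

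Cd209a is not a part of the class II machinery but a C-type lectin, a mouse homologue of DC-SIGN, which marks a class II-rich group of monocyte-derived dendritic cells. It was the lowest gene of the 8, with 2, 54 and 6 counts in the WT and 12, 15 and 5 counts in the Zeb2 cKO libraries, which corresponds to between 0.0531 and 1.23 CPM. WT 2 was again the highest, and the other libraries spread over more than for any other of the 8 genes (SD of log2 CPM 1.07 without WT 2, against 0.15 to 0.48). The log2 fold change of Cd209a was -1.13 (SE 1.03) with all libraries and 1.06 (SE 0.73, higher in Zeb2 cKO) without WT 2, and neither was called.

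**Figure D2:**
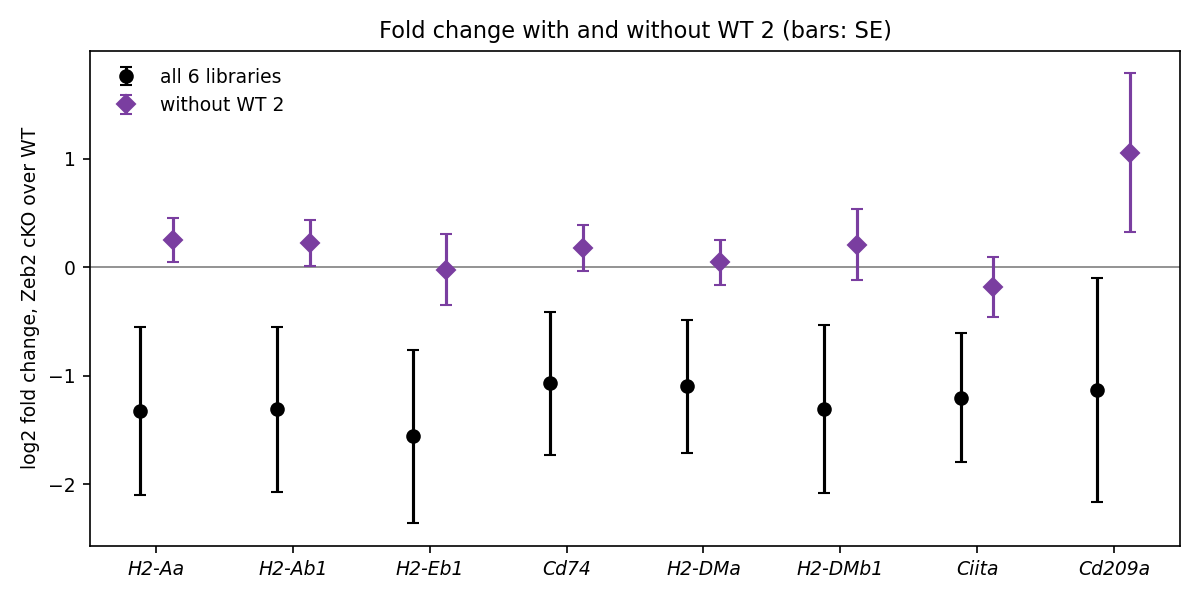
Log2 fold change of Zeb2 cKO over WT for each of the 8 genes, from all 6 libraries (black circles) and without WT 2 (purple diamonds), with bars of 1 SE on each side. The black circles lie between -1.56 and -1.07, and the purple diamonds between -0.18 and 1.06.

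Levels of different genes were compared per length, as CPM per kb of exon. Per length, Cd74 was the highest in every library, between 17.8 and 106 CPM per kb. H2-Aa (4.56 to 34.7) and H2-Eb1 (3.05 to 35.0) followed and overlapped each other, and H2-Ab1 was lower than H2-Aa in every library (3.08 to 23.0). H2-DMa and H2-DMb1 were far below and overlapped, between 0.426 and 3.77 CPM per kb. Ciita (0.114 to 0.715) and Cd209a (0.0335 to 0.777) were the lowest and were not apart from each other.

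To ask whether the genes kept their proportions, each was divided by H2-Aa of the same library. H2-Ab1 held the most constant proportion, 67.2%, 66.3% and 70.5% of H2-Aa per length in WT 1, 2 and 3 and 68.7%, 64.4% and 70.2% in Zeb2 cKO 1, 2 and 3. WT 2 was thus within the range of the others on this measure, although its level of both genes was more than 4-fold above every other library. Cd74 was between 3.04 and 4.63 times H2-Aa, lowest in WT 2. H2-DMa ranged from 6.80% to 11.5% of H2-Aa and was also lowest in WT 2. H2-DMb1 ranged from 8.86% to 14.3%, Ciita from 1.98% to 4.43% and Cd209a from 0.731% to 3.81%, and their extremes were in libraries other than WT 2. Between the genotypes the groups overlapped for all 7 ratios (exact two-sided permutation tests, p = 0.4 to 1, adjusted p = 1 over 7 ratios). With a smallest possible p of 0.1, these tests could not call a ratio and do not show that proportions were equal.

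H2-Eb1 kept a near-constant proportion in 5 of the libraries and departed from it in Zeb2 cKO 2. Per length, H2-Eb1 was at 106%, 101% and 104% of H2-Aa in WT 1, 2 and 3 and at 100.3% and 106% in Zeb2 cKO 1 and 3, but at 53.2% in Zeb2 cKO 2. Of the counts of both genes together, H2-Eb1 held 21.4% in Zeb2 cKO 2 (95% exact binomial interval 19.1% to 23.8%, counting error only), with 257 counts of H2-Eb1 beside 944 of H2-Aa. In the other 5 libraries it held 33.9% to 35.2%, and their intervals together ran from 31.9% to 38.3%, above that of Zeb2 cKO 2. Without Zeb2 cKO 2, the log2 ratio of H2-Eb1 to H2-Aa differed by -0.0075 between the genotypes, against -0.33 with it.

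The same library was the only one with counts of H2-Ea-ps, the gene of the missing I-E alpha chain (chromosome 17 of GRCm38, 34341959 to 34344645). It had 13 counts in Zeb2 cKO 2, or 0.300 CPM, and 0 counts in each of the other 5. A count of 0 allows up to 3 counts. With the 13 counts taken as exact, without their counting error, the level in Zeb2 cKO 2 was at least 3.76-fold higher than in WT 1. It was at least 5.37-fold higher than in Zeb2 cKO 3, the other end of the range over the 5 libraries. Once this was seen, all genes were searched for those with at least 10 counts in 1 library and at most 1 count in each of the others. Zeb2 cKO 2 had 8 such genes, of which 7 could be matched to the annotation, and 5 of these lay on chromosome 17 between 34341959 and 36117121: H2-Ea-ps, H2-Q2 (23 counts), H2-Bl (16 counts), BC023719 (24 counts) and Gm18733 (15 counts). H2-Q2 and H2-Bl belong to the class I family. The other 5 libraries had 0 to 5 such genes each, and 0 of those matched to the annotation lay in that region. In WT 1 and in Zeb2 cKO 1, only 1 of 2 such genes could be matched, and the position of the other is unknown.

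A class I pair differed in the same library. H2-D1 and H2-K1 encode the classical class I heavy chains. H2-D1 held 67.1% of the counts of both in Zeb2 cKO 2 (95% exact binomial interval 65.8% to 68.4%) and 55.4% to 56.9% in the other 5 libraries. The labels give the same strain for all 6 libraries, C57BL/6J (backcrossed), and do not say which H2 haplotype each mouse carried. A different level and a different allele of these polymorphic genes cannot be told apart from counts per gene. Why the histocompatibility genes of Zeb2 cKO 2 departed from those of the other libraries was not tested.

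**Figure D3:**
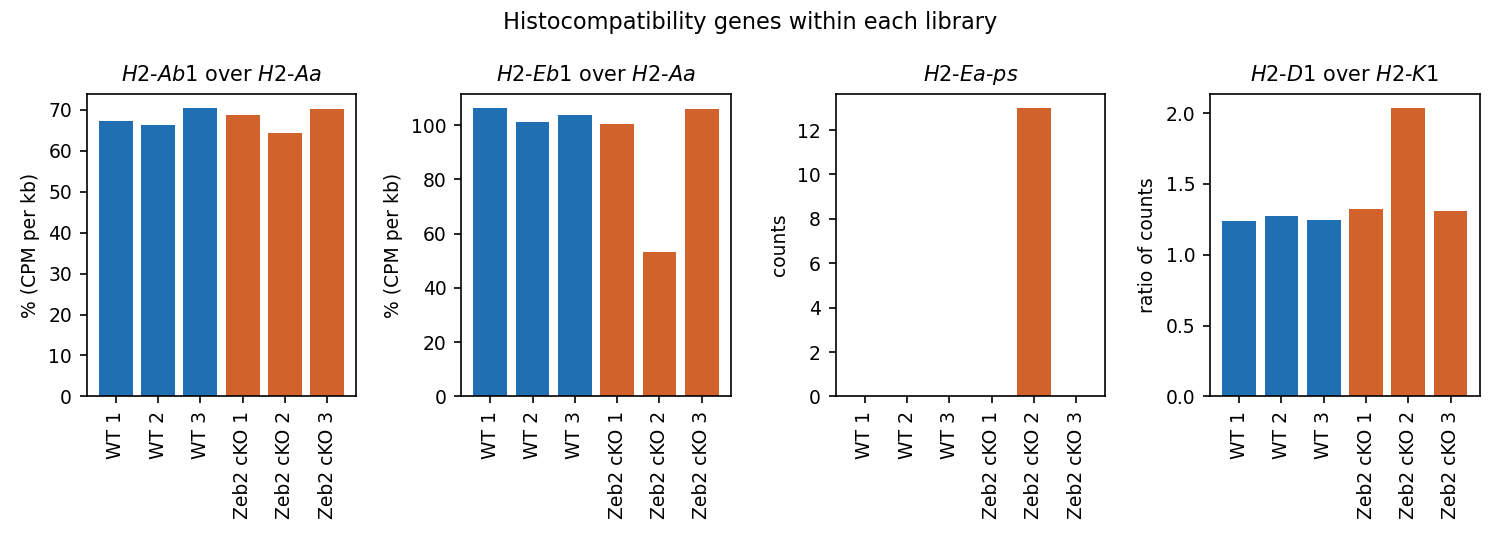
Bars of H2-Ab1 and H2-Eb1 as a percentage of H2-Aa (CPM per kb), of H2-Ea-ps counts, and of H2-D1 counts divided by H2-K1 counts, each axis starting at 0, in the WT (blue) and Zeb2 cKO (orange) libraries. Zeb2 cKO 2 lies apart from the other 5 libraries in each panel but the first, where all 6 lie between 64.4% and 70.5%.

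The other genes of the pathway were mixed, with WT 2 the highest library for 22 of 31 and not for 9. In WT 2, Ctss was 4.25-fold above the next library, within the range of the 8 genes (3.45-fold to 4.62-fold). H2-Oa, with 23 counts in WT 2, was 5.63-fold above it. Rfxank in WT 2 was at 0.57 times the highest other library. Of 31 listed genes, 27 passed the filter: 22 had fold changes below 0 and 5 above, none was called, and the median was -0.12 on the log2 scale (0.031 without WT 2). Among the 7 genes of antigen and invariant chain processing, all had fold changes below 0. Without WT 2 these ran from -0.23 to 0.17, with Ctss and Ifi30 below 0 and Ctsl, Ctsb, Ctsd, Lgmn and Sppl2a above. Ctss, cathepsin S, which makes the last cut of the invariant chain, was at 11.2, 74.4 and 17.5 CPM in the WT and 10.99, 12.7 and 13.5 CPM in Zeb2 cKO 1, 2 and 3 (log2 fold change -1.47, SE 0.67, adjusted p = 0.957; -0.20 without WT 2). Ctsd, a more general lysosomal protease, was at 497, 570 and 556 CPM in the WT and 531, 582 and 485 CPM in Zeb2 cKO 1, 2 and 3, with no library apart.

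Ifi30, the lysosomal thiol reductase that opens disulfide bonds of antigens, and Rfx5, a subunit of the RFX complex, were the 2 of the 27 genes whose groups did not overlap, against 2.97% of all tested genes lower and 3.39% higher in Zeb2 cKO. Ifi30 was at 4.27, 9.68 and 3.96 CPM in the WT and at 3.74, 3.48 and 3.26 CPM in Zeb2 cKO 1, 2 and 3 (log2 fold change -0.78, SE 0.35, adjusted p = 0.957; -0.23 without WT 2). Rfx5 was at 5.02, 5.61 and 5.91 CPM in the WT and at 6.32, 6.73 and 6.31 CPM in Zeb2 cKO 1, 2 and 3 (log2 fold change 0.23, SE 0.12, adjusted p = 0.957). The lowest WT library was close to the highest Zeb2 cKO library for Ifi30, and the highest WT library close to the lowest Zeb2 cKO library for Rfx5.

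The 7 genes of the promoter-bound complexes, Rfx5, Rfxank, Rfxap, Nfya, Nfyb, Nfyc and Creb1, had log2 fold changes from -0.27 to 0.23, 3 below and 4 above 0. Of the interferon gamma pathway, the main inducer of Ciita outside professional presenting cells, 6 of 7 genes passed the filter and had fold changes from -0.38 (Ifngr1) to -0.016. Ifng itself had 0 or 1 count in each library. March1, the ubiquitin ligase that removes class II from the surface, was at 2.28, 9.07 and 3.02 CPM in the WT and at 2.60, 2.97 and 3.20 CPM in Zeb2 cKO 1, 2 and 3, and Cd40, Cd80 and Cd86, the costimulatory genes, had log2 fold changes of 0.11, -0.55 and -0.37, or 0.37, 0.38 and 0.090 without WT 2.

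All 9 class I presentation genes had fold changes below 0, none was called, and their median was -0.40 (-0.066 without WT 2). B2m, the light chain of class I, was at 83.4, 194 and 113 CPM in the WT and at 77.7, 110 and 99.3 CPM in Zeb2 cKO 1, 2 and 3. WT 2 was the highest library for 8 of the 9 class I genes, 1.71-fold above the next library for B2m against 4.59-fold for H2-Aa.

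Marker lists of cell types that carry class II, or that share the tissue, moved with WT 2 as well. The summed CPM of 13 macrophage markers was 248.9, 955 and 342 in WT 1, 2 and 3 and 319, 313 and 299 in Zeb2 cKO 1, 2 and 3, and 12 of 13 had fold changes below 0. The 5 leukocyte markers summed to 116 CPM in WT 2 and 31.5 to 40.6 elsewhere, with 5 of 5 below 0. WT 2 was also the highest for the T cell list (3.24 against 0.372 to 0.919 CPM, 7 genes, 1 tested), the B cell list (20.1 against 7.24 to 9.59 CPM, 7 of 8 genes in the table, 4 tested) and the neutrophil list (4.88 against 1.498 to 3.31 CPM, 3 of 4 tested). By single genes, WT 2 was highest for 7 of 7 T cell genes, but for only 2 of 7 B cell and 2 of 4 neutrophil genes. Most of the B cell sum in WT 2 was Ighm (17.2 CPM), and most of the neutrophil sum was Csf3r (3.69 CPM). The 6 fibroblast markers summed to 7794 CPM in WT 2 against 1383 to 1932 in the others. The cardiomyocyte list (7 genes, 32940 against 53000 to 64739 CPM) and the endothelial list (5 genes, 281 against 404 to 499 CPM) were lowest in WT 2. None of these markers was called between the genotypes.

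The 11 dendritic cell markers summed to 37.6 CPM in WT 2 and to between 35.1 and 44.7 CPM in the other libraries. Most of this sum was Zbtb46 and Fscn1, which endothelial and other cells also express and which were lowest or next to lowest in WT 2. Of the 11 markers, 7 were highest in WT 2 and 4 were not (Zbtb46, Fscn1, Mgl2 and Siglech). Among the 7, picked out after their values were seen, Itgax, the integrin CD11c, was at 5.88 CPM in WT 2 and 0.784 to 1.22 CPM in the others, Flt3 at 1.21 against 0.0922 to 0.261 CPM and Xcr1 at 0.889 against 0.0781 to 0.161 CPM. The part of each cell type in the class II level of WT 2 was not tested.

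**Figure D4:**
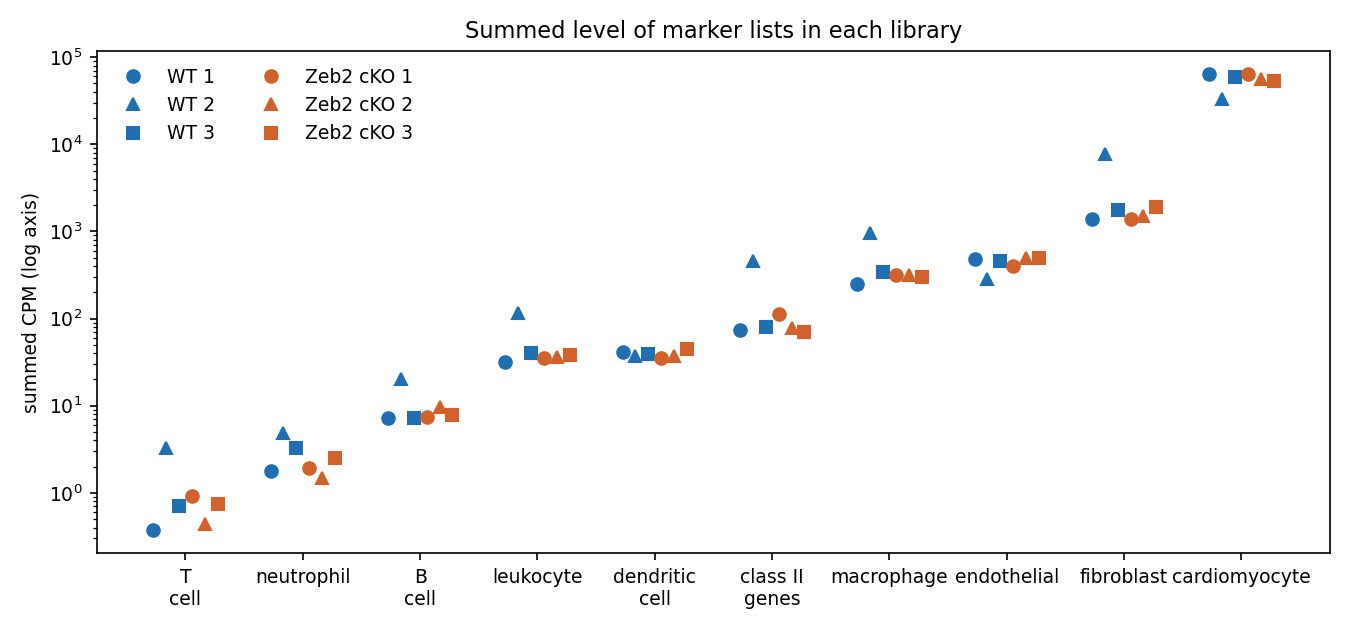
Summed CPM, on a log axis, of each marker list and of the 8 class II presentation genes, with 1 point per library (blue, WT; orange, Zeb2 cKO; circle, triangle and square, replicates 1, 2 and 3). WT 2 is the highest point of the T cell, neutrophil, B cell, leukocyte, class II, macrophage and fibroblast lists and the lowest of the endothelial and cardiomyocyte lists.

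Set against the macrophage markers of the same library, the class II chains of WT 2 were still the highest. H2-Aa was at 6.998%, 13.8% and 6.02% of the summed macrophage level in WT 1, 2 and 3 and at 9.003%, 6.95% and 5.79% in Zeb2 cKO 1, 2 and 3. Between the genotypes the groups overlapped for all 8 ratios to the macrophage markers (exact two-sided permutation tests, p = 0.3 to 0.8, adjusted p = 0.8 over 8 ratios), where again no ratio could have been called. With the mean log2 level of the macrophage list as a covariate in the edgeR fit, 4 of the 8 fold changes were below and 4 above 0, with a median of 0.013.

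Among 12320 other genes with a mean of at least 1 CPM, those nearest to the mean profile of the 8 genes over the 6 libraries included Fbln7, Omd, Adamtsl3 and Slit3, at root mean square distances of 0.14 to 0.17 on the log2 scale. Of the 8 genes themselves, H2-Ab1 was at 0.074 from that mean profile, H2-Aa at 0.11, and Ciita and Cd209a at 0.38 and 0.56. Fbln7, the gene of the matrix protein fibulin 7 and the nearest of them, was at 0.504, 4.63 and 0.807 CPM in the WT and at 1.02, 0.622 and 0.726 CPM in Zeb2 cKO 1, 2 and 3, again with WT 2 alone apart. These profiles share 1 dominant library, and the likeness is a description over 6 libraries.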

How the data were processed

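The authors deposited a table of raw read counts per Ensembl gene. Per the study's methods, strand-specific single-end reads of ribosome-depleted total RNA were aligned and quantified with STAR against Gencode M4. The labels name the build GRCm38. All 6 columns matched a sample, 3 per genotype. Totals ranged from 37288174 to 51136331 counts, of which 14301225 to 19024394 were outside mitochondrially encoded genes. Symbols and coordinates came from Gencode M21 of the same build, which held 36345 of the 38293 genes.

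Genotypes were compared with edgeR 4.0.16 (R 4.3.3): filterByExpr, TMM, quasi-likelihood F test, Benjamini-Hochberg adjustment over 14746 genes and a threshold of 0.05. Standard errors are the fold change divided by the square root of F, and fold changes carry a prior count of 0.125. Single values were tested with exact permutations over libraries, on log2(CPM + 0.5) for levels. Replicate numbers did not pair the libraries. In libraries simulated for this comparison (14591 genes), edgeR called 21 of 100 genes changed by 1 and 81 of 100 changed by 2 on the log2 scale. Alternatives were DESeq2 1.42.0, other scalings and filters, robust dispersions, a replicate block, a macrophage covariate and each library left out. Near-identical copies were sought with BLAST 2.17.0 (at least 75 bases at 95% identity). Promoter sequences are from RefSeq (GRCm38.p6).

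The members and lists were chosen with earlier results of these data known. The genes named are the 8 members, Zeb2, the genes of the pathway and class I lists, single markers where a result turns on them and the 5 genes with the nearest profile, of which 1 is not reported here. H2-Q2, H2-Bl, BC023719 and Gm18733 were named after their values were seen.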

Additional observations from a re-analysis of the deposited data

How the results depend on the processing

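The number of class II presentation genes called stayed at 0 in every setting tried, with adjusted p between 0.596 and 0.9998. Over all genes the count stayed at 0 in every edgeR setting, with 122 to 1134 genes at an unadjusted p under 0.05, and DESeq2 called 1. The median fold change of the 8 genes ran from -1.31 to -1.23 on the log2 scale under other scalings, filters, dispersions and DESeq2. With TMM computed without mitochondrially encoded genes, Cd209a did not pass the filter. The replicate block gave a median of -0.69 and called 0 genes; same-numbered libraries had correlated deviations of 0.088, -0.14 and -0.087, no library correlated best with its own number, and the numbers name libraries only. With the macrophage covariate, H2-Aa (0.061), H2-Ab1 (0.053), H2-DMb1 (0.11) and Cd209a (1.00) turned above 0.

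Leaving out 1 library at a time, the count of called class II presentation genes stayed at 0 and the median of their fold changes ran from -1.69 (without WT 1) to 0.19 (without WT 2). The fold changes ran from -1.75 to 0.25 for H2-Aa, from -1.73 to 0.23 for H2-Ab1, from -1.44 to 0.18 for Cd74, from -1.46 to 0.046 for H2-DMa, from -1.76 to 0.21 for H2-DMb1 and from -1.65 to 1.06 for Cd209a, each above 0 without WT 2 and in no other such fit. Those of H2-Eb1 and Ciita stayed below 0. Without WT 1, 6 of the 8 genes had an unadjusted p under 0.05, against 7.52% of all tested genes, and without WT 3, 2 of 8 against 2.51%. The log2 difference in ratio to H2-Aa ran from -0.031 to 0.032 for H2-Ab1, from -0.082 to 0.22 for Cd74, from -0.18 to 0.12 for H2-DMa, from -0.16 to 0.18 for H2-DMb1 and from -0.50 to 0.12 for Ciita. The groups overlapped for all 7 ratios except Cd74 without WT 1 and H2-Eb1 without Zeb2 cKO 3 (1 ratio each). Of the 8 ratios to the macrophage markers, they did not overlap for 2 without WT 3 (Ciita and H2-DMa) and for 1 without Zeb2 cKO 1 (H2-Eb1), and overlapped for the rest. The difference relative to the macrophage markers ran from -0.46 to 0.14 for H2-Aa, from -0.44 to 0.11 for H2-Ab1, from -0.41 to 0.054 for Cd74, from -0.46 to 0.14 for H2-DMb1 and from -0.27 to 1.03 for Cd209a. Relative to the dendritic cell list, an alternative chosen after seeing the data, Cd209a was at -0.12. The causes of these changes were not tested beyond the library left out. With 3 libraries per genotype and the spread of WT 2, intervals of the class II genes spanned changes in both directions.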

Other observations

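The search for genes with at least 10 counts in 1 library and at most 1 in each of the others also found genes away from chromosome 17. Olfr1033, an olfactory receptor gene on chromosome 2, had 200 counts in Zeb2 cKO 2 and 0 in the other 5 libraries. Spr-ps1, a pseudogene on chromosome 6, had 54 counts in Zeb2 cKO 1, 1 in WT 2 and 0 in the others. WT 2, the library with the highest class II levels, had 5 such genes, the immunoglobulin light chain gene Igkv11-106 (17 counts) and Tnfsf11 (10 counts) among them. WT 3 and Zeb2 cKO 3 had 0. These genes were picked out after their values were seen, and no cause was tested.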
